A study of Mus musculus with 8 samples.

Results

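The subject was the baseline transcriptome of mouse embryonic fibroblasts (MEFs), connective tissue cells grown out of embryos, as recorded in the 4 control libraries of a series of 8. The 4 members were taken by their titles, which call them MEF control, and their labels give the genotype as WT. The other 4 libraries carry a knockout of PUS10, a pseudouridine synthase, and enter no value below. All cells were grown in DMEM with 10% fetal bovine serum and 1% penicillin-streptomycin, with no other treatment named. Total RNA was made into stranded libraries with a kit that removes ribosomal RNA in place of selecting polyadenylated RNA, and was sequenced in pairs on a NextSeq 500. No source used here states the strain, the embryonic age, the passage, any immortalisation or the number of embryos. Whether the 4 libraries are separate cultures, lines or embryos is not labelled either, so the spread between them may be technical.

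Fibroblasts build and remodel the extracellular matrix. They secrete fibrillar collagens and fibronectin, hold on to that matrix through integrins, and pull on it with actin fibres and nonmuscle myosin. On stiff plastic in serum many of them take on features of myofibroblasts, the contractile form that carries smooth muscle actin. In such cells tension and serum act on transcription through 2 well known routes. The first is serum response factor (SRF) with its actin-sensing cofactors, and the second is YAP and TAZ with the TEAD factors.

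The count table held 12211 rows, and 12165 of them matched a protein-coding gene of GENCODE M21. Total counts were 23217332, 19724359, 18850689 and 20524947 in controls 1 to 4, so a gene at 1 CPM (1 count in 1000000 counts of its library) rested on about 19 to 23 reads. Over all rows the libraries correlated at Pearson r of 0.954 (controls 1 and 4) to 0.992 (controls 3 and 4) on log2(CPM + 1), a description across genes, which are not independent replicates. Principal component 1 took 67.2% of the variance, with scores of 41.2, 19.3, -26.2 and -34.4 in controls 1 to 4. Controls 1 and 2 thus stood on one side of it and controls 3 and 4 on the other. Component 2 took 25.7% and set control 1 (21.8) furthest from control 2 (-30.6). No pair of libraries looked like 1 library deposited again, the lowest chi-square per degree of freedom between their counts being 24.2, for controls 3 and 4. Scaling by TMM, which centres the bulk of genes, multiplied the library size of control 1 by a factor of -0.11 and that of control 3 by 0.09 on the log2 scale, so it raised the levels of control 1 and lowered those of control 3. The highest and lowest library for the summed level of a gene list was checked under TMM and under DESeq2 size factors. Counts of list members by highest or lowest library were checked under TMM alone. For single genes the highest and lowest library is by CPM or the per-length level unless stated otherwise.

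The labelled cell type was checked first against its markers. Acta2, smooth muscle actin, had 12452, 13857, 6349.9 and 4990.4 CPM in controls 1 to 4 and ranked 3 of all genes. Fn1, fibronectin, had 2907, 1868, 3062 and 1889 CPM and ranked 26. Col1a1, the alpha 1 chain of type I collagen, had 2079, 1142, 1605 and 905 CPM and ranked 59. These 3 genes, which encode the contractile and matrix proteins that define the cell, stood far above the median gene at 29.1 CPM in every library, although Acta2 spread 2.78-fold and Col1a1 2.30-fold between its highest and lowest library. Thy1, a surface glycoprotein used to sort fibroblasts, had 19.3, 21.3, 21.4 and 22.0 CPM, below the median gene by CPM, and ranked 7092. By counts per kilobase of exon the ranks were 3 for Acta2, 190 for Fn1, 175 for Col1a1 and 5633 for Thy1. On that scale Thy1 lay above the median gene. The 4 genes lie on GRCm38 at chromosome 19, 34241090 to 34255590 (Acta2, minus strand), chromosome 1, 71585520 to 71653200 (Fn1, minus), chromosome 11, 94936224 to 94953042 (Col1a1, plus) and chromosome 9, 44043384 to 44048579 (Thy1, plus).

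Of the 20 fibroblast markers listed, all 20 had a row and 18 had a mean of at least 10 CPM. Beside the genes above they include Vim, an intermediate filament protein, Serpinh1, the collagen chaperone of the endoplasmic reticulum, and S100a4, a calcium-binding protein long used to mark fibroblasts. The exceptions at the low end were Fap, a surface protease of activated fibroblasts, at 1.21, 1.47, 1.64 and 3.36 CPM, and Lum, a small leucine-rich proteoglycan, at 1.08, 0.101, 0.637 and 0.926 CPM. So the collagen-making and contractile markers were abundant in these cultures, and Fap and Lum were low in all 4 libraries. Thy1 lay below the median gene by CPM and above it per kilobase of exon.

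Markers of several other cell types were scarce. Erythroid markers had a row for 0 of 8 listed genes, leukocyte markers for 4 of 12, endothelial markers for 3 of 11, skeletal muscle markers for 2 of 11 and pluripotency genes for 1 of 11. Genes without a row in the table used here have no value, and may have been removed for low counts. The leukocyte markers were led by Lyz2, lysozyme, at 2.15, 2.28, 2.44 and 4.58 CPM, and the endothelial ones by Egfl7 at 5.21, 5.63, 9.23 and 10.1 CPM. Nanog, the 1 pluripotency gene with a row, had 0.345, 0.456, 0.637 and 0.7795 CPM. Krt19, a simple-epithelium keratin and the 1 epithelial marker of 12 with a row, was higher at 196, 89.2, 92.1 and 74.3 CPM, with control 1 above the other 3. Neural and glial markers had a row for 5 of 13 listed genes, 3 of them with a mean of at least 10 CPM. Their sum was 217, 201, 182 and 200 CPM. Among them Nes, an intermediate filament protein of many immature cells, had 186, 136, 104 and 77.7 CPM. Nes fell from control 1 to control 4 while the sum changed little, so the other neural members together rose. Among cartilage and bone markers Spp1, osteopontin, had 153, 194, 331 and 631 CPM. Krt19, Nes and Spp1 are also made by cultured mesenchymal cells, and whether another cell type contributes to these markers was not tested.

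The control libraries were led by a small number of very abundant transcripts. The 10 most abundant genes of each library took 8.54%, 7.99%, 7.14% and 6.93% of its counts in controls 1 to 4 (mean 7.65 ± 0.749%, SD, n = 4), and the 100 most abundant took 23.7 ± 1.79%. The upper 50% of the counts came from 620, 710, 780 and 753 genes. A level of 10 CPM was reached by 8541, 8570, 9012 and 8957 genes in controls 1 to 4, and 1000 CPM by 89, 92, 92 and 95.

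Cytoskeletal, translational and matrix genes filled the head of the ranking. Actb, cytoplasmic beta actin, led with 16233, 16956, 10208 and 8291 CPM. Eef1a1, the elongation factor that brings aminoacyl-tRNA to the ribosome, followed with 6755, 8188, 12011 and 12716 CPM, ahead of Acta2. Control 2 was highest for both actins and control 4 lowest, whereas Eef1a1 was lowest in control 1 and highest in control 4. Then came Ccnb1ip1, Vim (6343, 6744, 6938 and 5969 CPM), Thbs1, Ahnak, the giant scaffold protein of the cell cortex, and Flna, which crosslinks actin filaments. Thbs1, the matricellular protein thrombospondin 1, had 13041, 6636, 2273 and 2313 CPM. Its place as the sixth gene on average rested on controls 1 and 2, since it was 5.74-fold lower in control 3 than in control 1. The 20 most abundant genes also held mt-Co1, Eef2, Col1a2, Lgals1, Tpm1, Myh9, Lox, the enzyme that crosslinks collagen, Tagln, Sparc, Tubb5, Rack1 and Col5a2. Of these Sparc, a collagen-binding glycoprotein, was the steadiest at 3210.4, 3125, 3050.5 and 2988 CPM, a coefficient of variation (CV, SD as a percent of the mean) of 3.10%.

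The place of Ccnb1ip1 needs a caution, since it encodes a ubiquitin ligase known for meiotic crossing-over. It had 5531, 6504, 7829 and 10221 CPM. Its gene model (GRCm38 chromosome 14, 50789248 to 50807732, minus strand) overlaps Rpph1, the RNA component of ribonuclease P, at 50807449 to 50807767 on the same strand. Of the 319 bases of Rpph1, 233 lie inside annotated exons of Ccnb1ip1. Rpph1 is an abundant structured RNA without a poly(A) tail and has no row of its own in the table used here. How the reads divide between the 2 genes cannot be told from the counts. Rack1, a ribosome-bound scaffold, had 2019, 2495, 3324 and 3319 CPM, and 3 small nucleolar RNA genes lie within its annotated exons.

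Apart from the ranks and marker levels by CPM above, levels of different genes were compared per length, in TPM. TPM is here the counts per kilobase of annotated exon scaled to a sum of 1000000 per library. On that scale the order changed towards short transcripts, and 10 of the 20 highest genes were shared with the ranking by CPM. Lgals1, galectin 1, a short secreted lectin, came first with 13115, 17973, 21599 and 20478 TPM. Actb followed with 22111, 21925, 12841 and 10367 and Acta2 with 20690.2, 21859, 9745 and 7612. In controls 3 and 4 Lgals1 was above both actins, and in controls 1 and 2 it was below both. The ribosomal proteins Rplp1, Rpl8, Rpl32, Rplp0 and Rps2 entered the 20, as did Tmsb4x, which holds actin monomers, S100a6, S100a4, Ftl1, the light chain of ferritin, and Serpinh1. With the longest annotated transcript in place of the exon union, 16 of these 20 genes remained.

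Gene classes showed the same emphasis. The 44 listed genes of the actin cytoskeleton and focal adhesions took 7.48%, 6.78%, 4.65% and 4.16% of the counts in controls 1 to 4 (mean 5.77 ± 1.61%). The 82 cytosolic ribosomal proteins took 3.46%, 4.14%, 5.33% and 5.77% (mean 4.67 ± 1.06%). The 58 extracellular matrix proteins with a row, of 60 listed, took 5.24%, 3.70%, 3.70% and 3.75% (mean 4.10 ± 0.761%). The first class was highest in control 1 and lowest in control 4, ribosomal proteins were highest in control 4 and lowest in control 1, and matrix proteins were highest in control 1 with the other 3 libraries nearly level. Those extremes were the same with TMM and DESeq2 scaling, except that the lowest library for matrix proteins was then control 3 and not control 2.

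Translation factors held 2.96 ± 0.502% of the counts, chaperones 2.40 ± 0.115%, matrix-processing enzymes 1.63 ± 0.468%, nuclear-encoded subunits of oxidative phosphorylation 1.01 ± 0.146% and glycolytic enzymes 0.718 ± 0.156% (mean ± SD, n = 4). The share of chaperones differed 1.105-fold between highest and lowest library by CPM and 1.24-fold with TMM scaling, and the highest library was control 4 by CPM and control 1 with TMM or DESeq2. Among them Hspa8, the constitutive heat shock cognate, had 1989, 2326, 2068 and 2002 CPM, close to level. Hspa5, the chaperone of the endoplasmic reticulum also called BiP, had 2664, 1033, 1412 and 2088 CPM and was highest in control 1. The 7 mitochondrially encoded genes with a row, of 15 listed, held 0.656 ± 0.0729%, mostly mt-Co1 at 4770.5, 4532, 4959 and 6139.6 CPM. No long noncoding RNA of 33 listed and no small structured RNA of 18 had a row in the table used here, so these shares describe the messenger RNA part of the libraries. As a share of the summed per-length level ribosomal proteins held 10.3 ± 1.90% and matrix proteins 1.98 ± 0.467%.

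**Figure D1:**
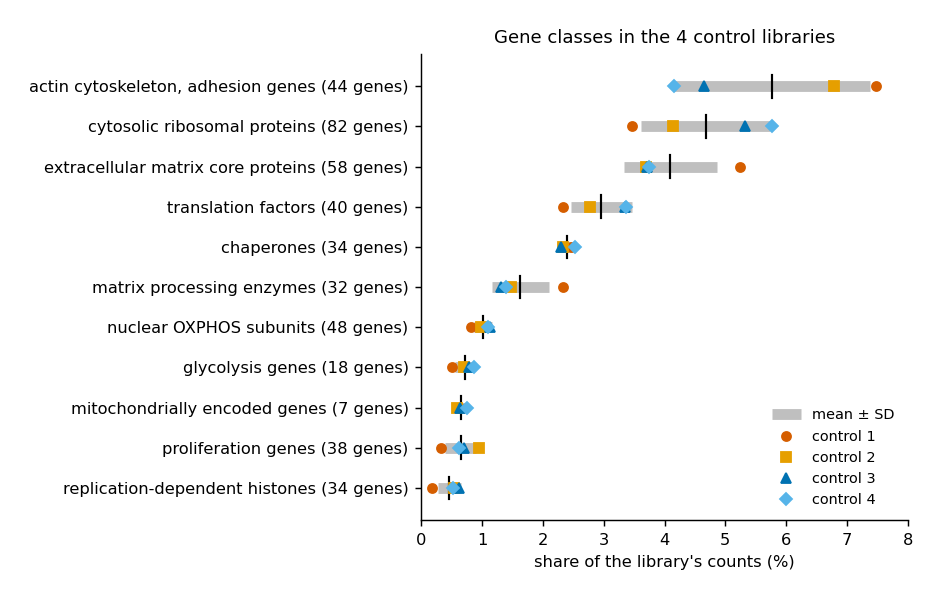
Share of each library's counts (percent, horizontal axis) held by 11 gene classes, with 1 point for each control library, a black tick at the mean and a grey bar for the mean ± SD of 4. Actin cytoskeleton genes ran from 7.48% in control 1 to 4.16% in control 4, and ribosomal proteins from 3.46% to 5.77% in the opposite order.

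Within families, 198 pairs of neighbours in the order of per-length levels were compared over 30 families, and 96 kept their order in every one of the 4 libraries. An exact paired test over 4 libraries cannot pass 0.05, so none was run, and an order held in all 4 is a description. With the longest annotated transcript as the length, 162 pairs kept the order of their means.

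The actins, whose coding sequences are close to identical so that reads may be split between them, were ordered alike in all 4 libraries. The per-length levels were 16811 ± 6097 for Actb, 14977 ± 7339.8 for Acta2, 1939.8 ± 607 for Actg1, the cytoplasmic gamma form, 216 ± 171 for Actg2, the enteric smooth muscle form, and 117 ± 137 TPM for Acta1, the skeletal muscle form (mean ± SD, n = 4). Acta1 had 133, 40.3, 18.4 and 8.77 CPM, highest in control 1 and lowest in control 4. Actg2 had 148, 171, 41.7 and 22.9 CPM, with controls 1 and 2 above controls 3 and 4. All 5 actins with a row were lowest in control 4 (background: 20.4% of the genes with a count were lowest there).

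Among other parts of the contractile machine, Myh9, the main nonmuscle myosin II heavy chain, stood 4.01-fold above Myh10 per length, in order in all 4 libraries. Of the tropomyosins, which wrap the actin filament, Tpm4 (3471 ± 1015) and Tpm1 (2112 ± 772 TPM) led, but with the longest transcript as length Tpm1 came first. The tubulins were led by Tubb5 at 2883, 3868, 3087 and 2565 TPM, highest in control 2. Lamins, which line the nucleus, kept 1 order in all 4 libraries, with Lmna at 651 ± 45.6, Lmnb1 at 74.7 ± 28.1 and Lmnb2 at 35.8 ± 8.60 TPM.

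Contractile genes and the targets of SRF and YAP were mostly high in controls 1 and 2 and low in controls 3 and 4. The 12 smooth muscle contractile genes with a row, of 13 listed, summed to 18759, 20048, 9327 and 7494 CPM, mostly Acta2. Of the 12, 8 were highest in control 2 and 10 were lowest in control 4, beside 20.9% and 20.4% of all genes with a count. With TMM scaling 6 were highest in control 2 and 10 lowest in control 4 (background 25.7% and 25.6%). The 18 listed YAP and SRF targets, 5 of which are also in the smooth muscle list, summed to 34468, 30379.9, 14625 and 12489 CPM, 2.76-fold from lowest to highest. Of the 18, 12 were highest in control 1 and 15 lowest in control 4 (background 19.4% and 20.4%), and 14 differed at least 2-fold between their highest and lowest library, where 31.1% of all genes did. With TMM scaling 13 were highest in control 1 and 15 lowest in control 4 (background 28.1% and 25.6%).

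The members nearest to YAP in textbooks, Ccn2 and Ccn1, secreted matricellular proteins, had the widest range in the list. Ccn2 had 5264, 2379.7, 385 and 315 CPM. Ccn1 had 1181, 494, 158 and 104 CPM, again highest in control 1 and lowest in control 4 with no overlap of controls 1 and 2 with controls 3 and 4. Tagln, an actin-binding protein of smooth muscle, had 4600.1, 4278, 2043 and 1701 CPM, and Myl9, the regulatory myosin light chain, 964, 972, 463 and 431 CPM. The factors themselves varied less than Ccn2: Wwtr1, which encodes TAZ, had 164, 157, 152 and 182 CPM, Yap1 189.9, 165, 158 and 120.2 CPM and Tead1 111, 74.3, 63.1 and 45.9 CPM. The share of actin cytoskeleton genes was also highest in control 1 and lowest in control 4, and its part in these levels was not tested.

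Promoter sequence was read for these lists because many of their members were high and low in the same libraries. RefSeq promoters (GRCm38.p6) were found for 22 of the 28 genes in the actin, smooth muscle and YAP/SRF lists, 26 promoters in all, and the 250 bases before each start were searched on both strands. The CArG box, the site of SRF, was found in 5 of the 26 (19.2%), and in 1.204% of the 12456 promoters of all genes in the table. The TEAD motif GGAATG was found in 13 of the 26 (50%), and in 10.6% of all. A match describes letters only, and the lists hold genes that are known as targets of these factors, so the shares carry no test. Some genes have more than 1 promoter, and these can overlap. The 4 stretches below show how such matches lie in the promoters that held at least 2 of them and lay outside the GENCODE gene model. They are read 5′ to 3′ along the gene's strand, with the CArG boxes and TEAD motifs in capitals, and the 2 motifs do not overlap in them.
Acta1 promoter, chr8:123894801-123894863, minus strand, 88 to 26 bases before the start: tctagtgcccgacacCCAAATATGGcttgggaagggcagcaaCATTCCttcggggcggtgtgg
Ajuba promoter, chr14:54577805-54577862, minus strand, 201 to 144 bases before the start: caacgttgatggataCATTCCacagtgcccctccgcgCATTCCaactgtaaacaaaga
Srf promoter, chr17:46556200-46556259, minus strand, 97 to 38 bases before the start: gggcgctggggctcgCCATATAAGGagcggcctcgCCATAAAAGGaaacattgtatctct
Vcl promoter, chr14:20929156-20929275, plus strand, 242 to 123 bases before the start: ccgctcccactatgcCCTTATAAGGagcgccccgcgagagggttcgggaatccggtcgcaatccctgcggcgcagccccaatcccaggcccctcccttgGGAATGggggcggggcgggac

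Acta1 carried 1 CArG box ending 64 bases before the start and 1 TEAD motif ending 41 bases before it. Srf, which encodes serum response factor itself, carried 2 CArG boxes and had 119.7, 101, 66.4 and 62.1 CPM. Vcl, vinculin of the focal adhesion, carried 1 of each and had 2165, 1355, 851 and 864 CPM. Ajuba, a LIM protein of adhesion sites that binds the YAP kinases, carried 2 TEAD motifs and had 164, 95.5, 87.1 and 76.2 CPM. All 4 genes were highest in control 1 (background 19.4% of all genes by CPM, 28.1% with TMM), as were 12 of the 18 YAP and SRF targets by CPM. Acta1, Srf and Ajuba were lowest in control 4 (background 20.4% and 25.6%) and Vcl in control 3 (10.6% and 17.5%), under CPM and TMM alike. The 4 were taken from lists already high in controls 1 and 2, so a link between motif and level was not tested.

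Collagens and other matrix genes spread in several directions. Col1a2 led the fibrillar collagens per length at 1372 ± 218 TPM, followed on average by Col5a2, Col1a1 and Col3a1. Col5a2 was above Col1a1 in 3 of the 4 libraries, all but control 1. Col1a1 was above Col3a1 in 3 of the 4, all but control 4. With the longest transcript as length Col3a1 came before Col1a1. Col1a1 and Col1a2 encode the chains of 1 heterotrimer, yet Col1a1 stood below Col1a2 in all 4 libraries per length, at 1156, 603, 824 and 462 against 1466, 1061, 1564 and 1397 TPM. Col1a1 was lowest in control 4, while Col3a1, type III collagen, was highest there with 1574, 1319, 1852 and 3527 CPM, against 2079, 1142, 1605 and 905 CPM for Col1a1. Of the 58 matrix genes 33 differed at least 2-fold between libraries, beside 31.1% of all genes. Among basement membrane chains Col4a1 had 3939, 2380.2, 1799 and 1691 CPM, and Col4a1, Col4a2 and Col4a5 kept their order in all 4 libraries. Of the matrix enzymes Lox had 5192, 3204, 2686 and 2699 CPM and Timp1, the inhibitor of matrix metalloproteinases, 866, 888, 339.9 and 296 CPM, with controls 1 and 2 above controls 3 and 4 for both. Postn, a matricellular protein of the fibroblast list, was highest in control 4 at 313, 232, 349 and 901 CPM.

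The integrins, heterodimeric receptors of the matrix, were dominated by Itgb1, the common beta 1 chain, at 3483, 2659, 1544 and 1696 TPM. Itgb5 came next at 313, 318, 459 and 461, and Itgb3 stood 84.2-fold below Itgb5. Itgb1 was highest in control 1 and Itgb5 highest in control 4, and the order of the 2 was the same in all 4 libraries. The alpha chains were led by Itgav and Itga5, whose order was not constant. Itga5, the fibronectin receptor chain, had 458, 247, 105 and 76.3 CPM, 5.998-fold from control 1 to control 4, and Itgav, the vitronectin receptor chain, 705, 720.1, 444 and 362 CPM. Itga11, a collagen receptor chain, went the other way with 48.8, 97.0, 122 and 119 CPM.

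Growth factor receptors and ligands had clear leaders. Pdgfrb, the beta receptor of platelet-derived growth factor, had 185, 195, 241 and 197 TPM and Pdgfra, the alpha receptor, 9.11, 11.7, 21.7 and 24.4, so that Pdgfrb was above Pdgfra in every library. Pdgfra nevertheless ranged from 25.0 CPM in control 1 to 73.1 CPM in control 4. Of the ligands, Pdgfa had 43.6 ± 18.4 and Pdgfb 0.168 ± 0.161 TPM. Among transforming growth factor beta ligands Tgfb3 led with 1094, 483, 156 and 161 TPM, above Tgfb2 (15.1 ± 3.55) and Tgfb1 (4.23 ± 1.16) in all 4 libraries. Tgfb3 was the member of its family with the widest range, 1015, 471, 157 and 163 CPM, high in control 1 and low in controls 3 and 4. The epidermal growth factor receptor gene Egfr had 353, 231, 198 and 253 CPM and its relative Erbb2 31.6, 26.1, 29.5 and 20.6 CPM, and 2 of the 4 family members had a row. Fgfr2 stood above Fgfr1 in all 4 libraries, at 34.7 ± 10.4 and 23.4 ± 2.53 TPM. Igfbp7 led the insulin-like growth factor genes at 1137 ± 81.0 TPM, and Igf2r, the clearance receptor, followed at 130.4 ± 44.5.

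Most families of metabolic isoenzymes also had a clear leader. Ldha, the lactate dehydrogenase subunit that favours lactate, stood 43.0-fold above Ldhb per length, at 764, 955, 981 and 1076 TPM for Ldha against 12.2, 14.7, 30.5 and 30.5 for Ldhb. Pfkl led the phosphofructokinases with 94.4 ± 21.5 TPM, before Pfkm and Pfkp, in that order in all 4 libraries. Hk2 and Hk1, the hexokinases, had no constant leader, at 48.7 ± 21.7 and 31.99 ± 4.17 TPM by exon union. Their order changed with the length used, and by exon union Hk1 was above Hk2 in control 3. Slc2a1, the basal glucose transporter, led its family at 44.4, 55.8, 41.7 and 44.4 TPM. Pkm, pyruvate kinase, was the glycolytic gene with the highest per-length level and had 1532, 2417, 2693 and 3066 CPM, lowest in control 1 and highest in control 4, as the glycolytic list was as a whole (0.506%, 0.707%, 0.793% and 0.866%).

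Cell cycle regulators had a leader in each family. Ccnd1 led the D-type cyclins at 340.0, 647, 474 and 355 TPM, above Ccnd2 (144 ± 23.7) and Ccnd3 (29.1 ± 1.75) in all 4 libraries. Of the cyclin-dependent kinase inhibitors Cdkn2b, which blocks the partners of cyclin D, led at 105, 123, 240.4 and 275 TPM, with controls 3 and 4 above controls 1 and 2. Cdkn1b had 41.1, 66.7, 114 and 122 CPM in the same pattern, whereas Cdkn1a, the target of p53, was closer to level at 54.1, 43.8, 56.2 and 39.8 CPM. Myc had 70.3, 78.4, 40.2 and 19.98 CPM and stood above Mycl and Mycn in all 4 libraries. The RAS genes were led by Rras2 at 439, 323, 150.0 and 138 CPM, highest in control 1, and per length Hras and Nras had 85.9 ± 21.1 and 69.6 ± 7.72 TPM. All 13 listed genes of pseudouridine synthases, which isomerise uridine in RNA, had a row, 11 of them with a mean of at least 10 CPM. Of the 13, 0 reached a 2-fold range between control libraries. The share was 31.1% over all genes and 20.8% over genes from 10 to 100 CPM. Pus10, the gene knocked out in the other libraries of the series, had 36.2, 47.8, 41.3 and 52.7 CPM in the control libraries.

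**Figure D2:**
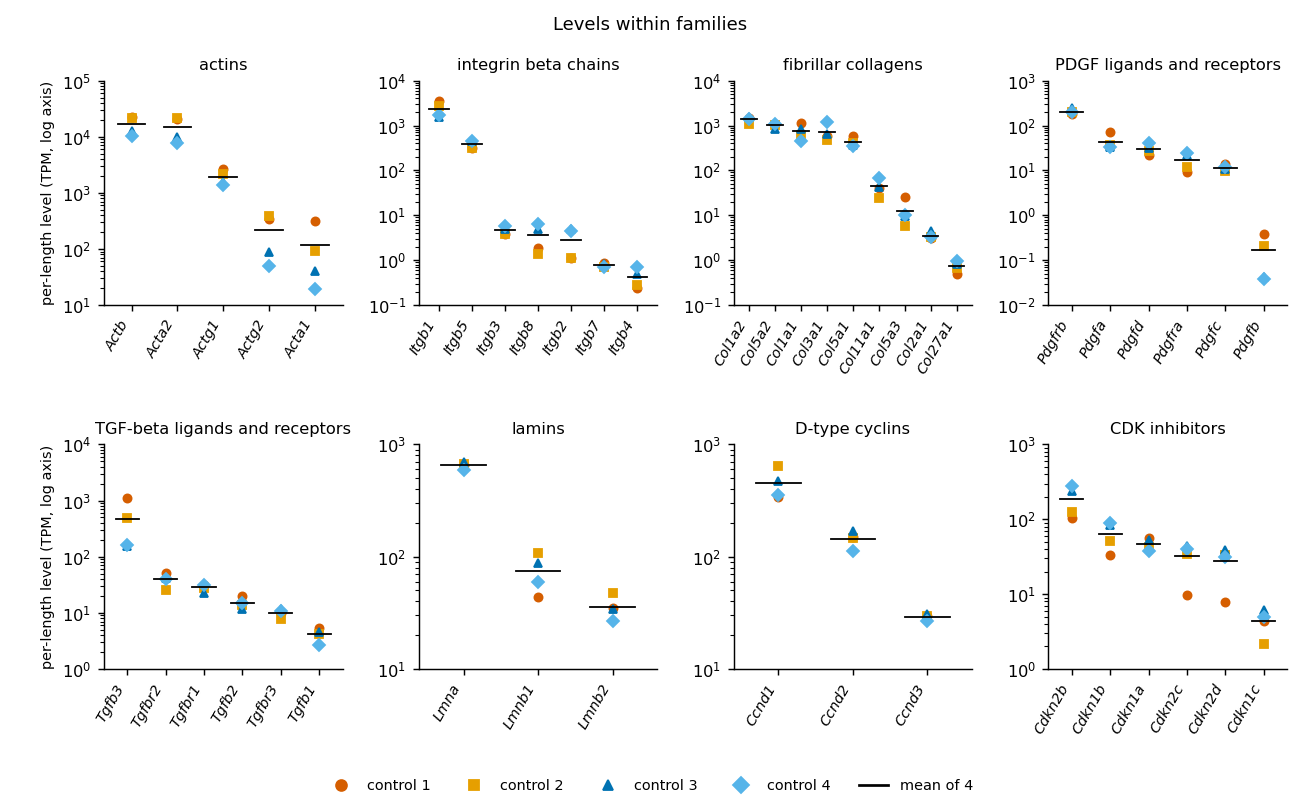
Per-length level (TPM, log axis) of each member of 8 families, with 1 point for each control library and a black line at the mean of 4. Itgb1, Lmna and Pdgfrb stand above the other members of their families in all 4 libraries, and Tgfb3 and Acta1 spread over more than a factor of 5.

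The HOX genes with a level were those of the middle and posterior body and the limb. HOX genes are set along the body axis in the embryo, low paralogue numbers towards the head and high ones towards the tail and the limb tips, and fibroblasts keep this pattern in culture. Of 39 annotated HOX genes 18 had a row, 11 in the HOXA and 7 in the HOXD cluster, and none of HOXB or HOXC. HOX genes without a row have no value here, so whether they were expressed cannot be told. Hoxd8 was highest at 81.7, 71.8, 77.6 and 90.2 TPM, then Hoxa10 at 39.7, 49.3, 77.8 and 70.2 and Hoxd10 at 34.9, 34.9, 52.9 and 60.4. Hoxa11 had 27.97, 28.8, 53.6 and 45.5, Hoxd9 19.9, 20.1, 26.0 and 24.8, Hoxa9 16.3, 17.7, 20.5 and 24.1 and Hoxa7 10.9, 10.99, 15.1 and 13.8 TPM. The highest levels thus lay between paralogues 7 and 11 in HOXA and between 8 and 10 in HOXD. Hoxd4 was lower at 7.36 ± 2.28 TPM. Hoxa13 was at 0.542 ± 0.169, Hoxd11 at 0.282 ± 0.0912 and Hoxd13 at 0.185 ± 0.0568 TPM, and the anterior Hoxa2 and Hoxa3 at 0.594 ± 0.174 and 0.199 ± 0.0874. Hoxd10 and Hoxd11 are neighbours in the cluster, and the step between their per-length levels, 45.8 ± 12.9 against 0.282 ± 0.0912, was the steepest among the HOXD genes with a row. Hoxa10, Hoxa11 and Hoxd10 were higher in controls 3 and 4 than in controls 1 and 2, and Hoxd8 was within 1.30-fold over all 4.

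**Figure D3:**
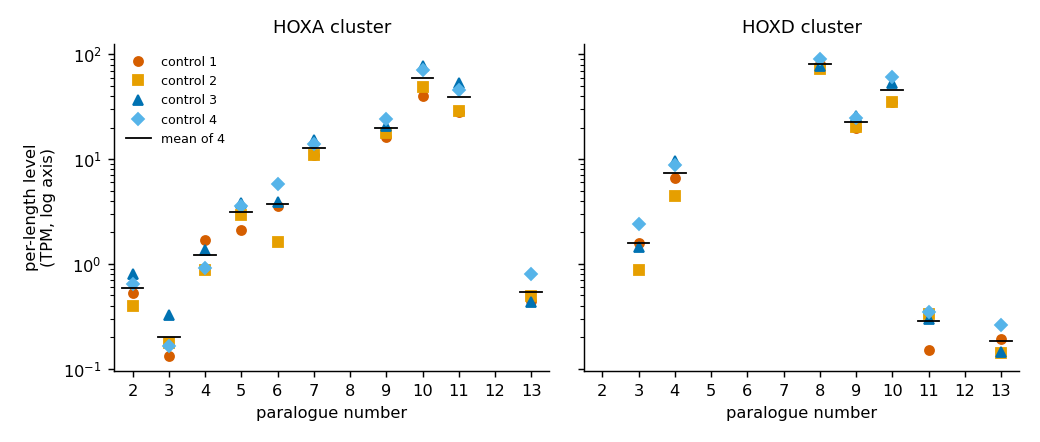
Per-length level (TPM, log axis) of the HOX genes with a row in the table from paralogue 2 on, by paralogue number, for the HOXA and the HOXD cluster, with 1 point for each control library and a black line at the mean of 4. Levels are highest at Hoxd8 (80.3 ± 7.72) and Hoxa10 (59.3 ± 17.7) and are below 1 at paralogue 13 of both clusters.

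Other transcription factors of mesenchyme and position had a row for 40 of 54 listed. Prrx2, a homeobox factor of limb and face mesenchyme, led with 203, 157, 192 and 226 TPM, followed by Tbx15 at 72.2, 75.8, 119.8 and 125 and Prrx1 at 93.0, 73.5, 87.6 and 83.3. Prrx1 came before Tbx15 when the longest transcript was the length. Osr1, of intermediate and limb mesoderm, had 49.9, 41.1, 50.1 and 38.6 CPM, and Twist1, a basic helix-loop-helix factor of mesenchyme, 24.8, 28.8, 32.5 and 35.4 CPM. Of the imprinted growth genes Grb10, an adaptor that restrains insulin signalling, led at 1174, 1350.1, 1297 and 1357 CPM and was level, while Mest was 7.07-fold higher in control 4 than in control 1, at 8.05, 11.7, 22.1 and 57.0 CPM.

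The spread between control libraries depended on the level of the gene. The median CV over 12196 genes with a count was 21.6%, and 3795 genes (31.1%) differed at least 2-fold between their highest and lowest library. Without control 1 the count over the other 3 libraries was 2329. Among genes with a mean of at least 1 CPM it was 3072 genes (27.1%). The share with a 2-fold range was 82.7% below 1 CPM, 20.8% from 10 to 100 CPM and 15.3% from 100 to 1000 CPM. Scarce genes thus raise the 31.1% used as background. The common biological coefficient of variation that edgeR estimated over these 4 libraries was 28.3%. Spread by level was widest for scarce genes, with a median CV of 51.2% below 1 CPM and 32.3% from 1 to 10 CPM. It was lowest from 100 to 1000 CPM at 16.6%, and higher again, at 23.3%, for the 90 genes above 1000 CPM, whose counting error alone is 0.513%.

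The 15 most variable genes with a mean of at least 10 CPM included secreted and contractile products. Myh11, the smooth muscle myosin heavy chain, had 12.7, 60.5, 5.94 and 3.56 CPM and was the 1 gene of the 15 that was highest in control 2. Serpinb2, plasminogen activator inhibitor 2, had 50.7, 18.4, 2.60 and 2.24 CPM. In all, 11 of the 15 were highest in control 1, beside 19.4% of all genes by CPM and 28.1% with TMM scaling. Among them were Ccn1, Ccn2, Acta1, the serotonin receptor gene Htr1b (60.8, 12.9, 7.80 and 5.26 CPM), Mustn1 (51.2, 10.1, 7.32 and 5.21), the receptor tyrosine kinase gene Ret (39.2, 6.39, 5.46 and 6.87) and Lims2 (77.9, 25.4, 8.70 and 8.09). The other 3 were highest in control 4. These were Scara5, a scavenger receptor for ferritin, with 5.13, 9.73, 31.8 and 88.3 CPM, Rspo3, an enhancer of WNT signalling, with 2.41, 9.33, 21.7 and 55.6 CPM, and Igsf10 with 3.45, 3.70, 13.3 and 32.3 CPM.

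The steadiest genes by CPM were of moderate abundance and varied function. The 10 with the smallest CV were Dolpp1, Ddi2, Mfap3, Usp46, Mtln, Setd2, Hdhd2, Smap1, Aifm1 and Slc35e1. Dolpp1, which recycles the dolichol carrier of protein glycosylation, had 17.2, 17.2, 17.5 and 17.1 CPM, a CV of 1.01%. Setd2, the histone H3 lysine methyltransferase of transcribed genes, had 80.5, 82.6, 82.7 and 82.3 CPM. They were picked as the lowest of 8749 genes over 4 libraries. At the depth of Dolpp1, 399, 340, 330 and 351 counts, counting error is larger than the spread seen. The list also depends on the library total as the scale. TMM factors ran from 0.927 in control 1 to 1.07 in control 3, so genes level by CPM are less level with TMM scaling.

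Genes used as references in quantitative PCR ranged widely in steadiness. Of 23 listed, Eif4a2 had the smallest CV at 5.84%, then Hprt at 8.24%, Ywhaz at 8.72% and Tbp at 9.38%. Hprt had 133, 151, 130.3 and 126 CPM. Gapdh had 279, 351, 409 and 390.1 CPM and a CV of 16.1%, and its level may be understated where reads are shared with its many pseudogene copies. The commonly used Actb had a CV of 33.4%, Rpl13a 35.9% and Tfrc, the transferrin receptor, 49.7%. These values depend on the library total as the scale.

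**Figure D4:**
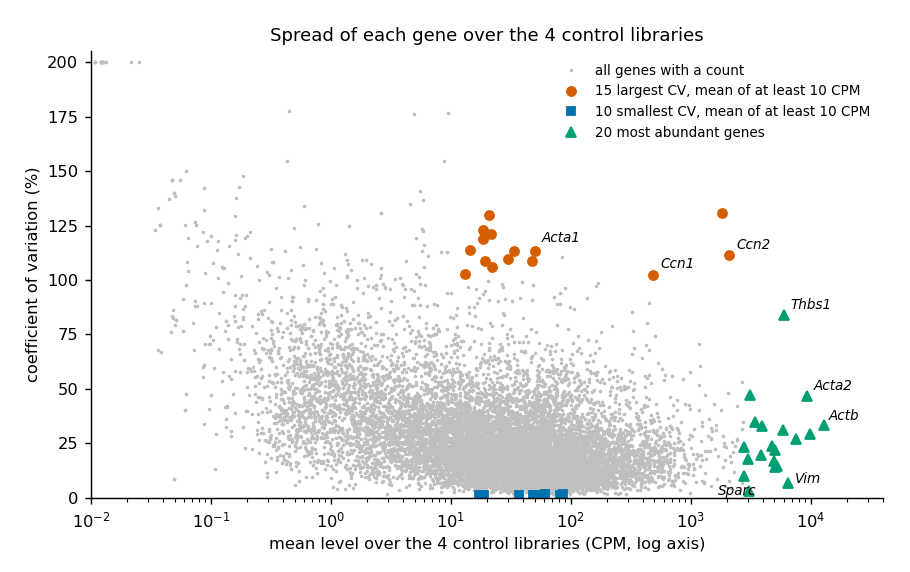
Coefficient of variation over the 4 control libraries (percent, vertical axis) against mean level (CPM, log axis) for each gene with a count, with the 15 most and 10 least variable named genes and the 20 most abundant genes marked. Ccn2 and Ccn1 lie high among abundant genes with CVs of 111% and 102%, and Sparc lies at 3.10%. The CVs are of CPM and depend on the library total as the scale.

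Whole gene groups had their own order of libraries. Proliferation genes (38 of 38 with a row) summed to 3313, 9511, 7015 and 6196 CPM. All but 1 of the 38 were highest in control 2 and 29 were lowest in control 1, beside 20.9% and 39.8% of all genes. A range of at least 2-fold was seen for 31 of them, beside 31.1% of all genes. Kif20a, a kinesin of cytokinesis, had 48.7, 461, 389 and 331 CPM and Top2a, the topoisomerase of dividing cells, 219.7, 932, 739.6 and 779 CPM, with control 1 far below the other 3. Pcna, the sliding clamp of replication, was flatter at 222, 328, 270.0 and 256 CPM, and Rrm2, the regulated subunit of ribonucleotide reductase, had 254, 505, 238 and 168 CPM. In bulk RNA, fewer dividing cells and less of these transcripts per cell cannot be told apart.

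The replication-dependent histones, whose messages end in a stem-loop and not in a poly(A) tail, are seen in libraries of total RNA. Of the 34 with a row, 33 were lowest in control 1 (background 39.8%) and 27 highest in control 3 (background 26.9%), with 21 highest in control 3 under TMM scaling (background 17.8%). All 34 had a range of at least 2-fold, beside 31.1% of all genes. Their sum was 1848, 5313, 6194 and 5228 CPM, 3.35-fold from lowest to highest. H2bc18 had 75.0, 325, 461 and 387 CPM and H4c8 77.1, 271, 317 and 265 CPM, and since histone genes are near-identical copies, the division of reads between them is uncertain. Control 1 was thus lowest for histones and for proliferation genes, but the highest library differed, control 3 for histones and control 2 for proliferation genes.

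Most ribosomal proteins were highest in control 4 and lowest in control 1. Of 82, 69 were highest in control 4 and 74 lowest in control 1 (background 32.8% and 39.8%), or 70 and 70 with TMM scaling (background 28.4% and 30.5%). A 2-fold range was reached by 5 of them, beside 31.1% of all genes and 15.3% of genes from 100 to 1000 CPM. Their median level was 454.5 CPM. Rpl8 had 1671, 2098, 2611 and 2673 CPM and Rps2 1192, 1701, 2289.8 and 2309.7 CPM. The 48 nuclear-encoded subunits of oxidative phosphorylation were lowest in control 1 for 44 members by CPM and for 37 with TMM scaling, and 1 of the 48 reached a 2-fold range against the same background. Atp5b, of the ATP synthase, had 1646, 2243, 2471 and 2273 CPM.

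Sterol and fatty acid synthesis genes had their low in control 2. Of 28, 25 were lowest there and 20 were highest in control 4 (background 29.3% and 32.8%), and 21 differed at least 2-fold (background 31.1%). Hmgcs1, which makes the precursor of mevalonate, had 219, 125, 421 and 540.3 CPM and Cyp51, a demethylase of lanosterol, 277, 135, 367 and 453 CPM. Scd2, a desaturase of fatty acids, had 534, 625, 1919 and 1745 CPM, with controls 3 and 4 above controls 1 and 2. The sums were 3812, 2809.7, 6569 and 6801 CPM.

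Interferon-stimulated genes were a minor part of the libraries, at 586, 242, 362 and 445 CPM in sum over 33 rows of 38 listed. Of the 32 with a count, 28 were lowest in control 2 and 19 highest in control 1 (background 29.3% and 19.4%). Bst2, tetherin, which holds budding viruses at the membrane, had 66.5, 11.5, 14.5 and 16.4 CPM, and Lgals3bp, a secreted glycoprotein, 33.8, 7.60, 13.6 and 17.1 CPM, both highest in control 1. Ifi27 had 92.4, 54.2, 51.8 and 64.5 CPM and Ifi35 39.7, 20.4, 21.9 and 25.1 CPM. Ifit2, which binds viral RNA, was closer to level at 32.7, 31.5, 38.6 and 38.7 CPM.

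Immediate early genes respond quickly to serum. Of 18 with a row, 13 were highest in control 2 and 13 lowest in control 4 (background 20.9% and 20.4%), although their sum was highest in control 1, at 1266, 1260.0, 743 and 671 CPM. Klf6 had 505, 414, 216 and 191 CPM and Ier3 77.7, 83.8, 23.5 and 27.0 CPM, while Jund, the steadily expressed JUN relative, was highest in control 4 at 67.9, 59.0, 116 and 126 CPM.

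The 22 targets of ATF4, the factor of amino acid shortage and endoplasmic reticulum stress, summed to 4224, 4529.6, 5061 and 5762 CPM, and Atf4 itself had 445, 553, 607 and 702 CPM, with 12 of 22 members highest in control 4 (background 32.8%) and 8 with a range of at least 2-fold (background 31.1%). The 19 hypoxia response genes with a row summed to 1280.2, 1381, 1407 and 1740.1 CPM, highest in control 4, with the lowest library control 1 by CPM and control 3 with TMM or DESeq2 scaling. A 2-fold range was reached by 8 of the 19 (42.1%), beside 31.1% of all genes. P4ha1, the prolyl hydroxylase of collagen in that list, had 409, 421, 485 and 659 CPM. For all 9 lists drawn by library, the highest and the lowest library by summed level were the same with CPM, TMM and DESeq2 scaling.

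**Figure D5:**
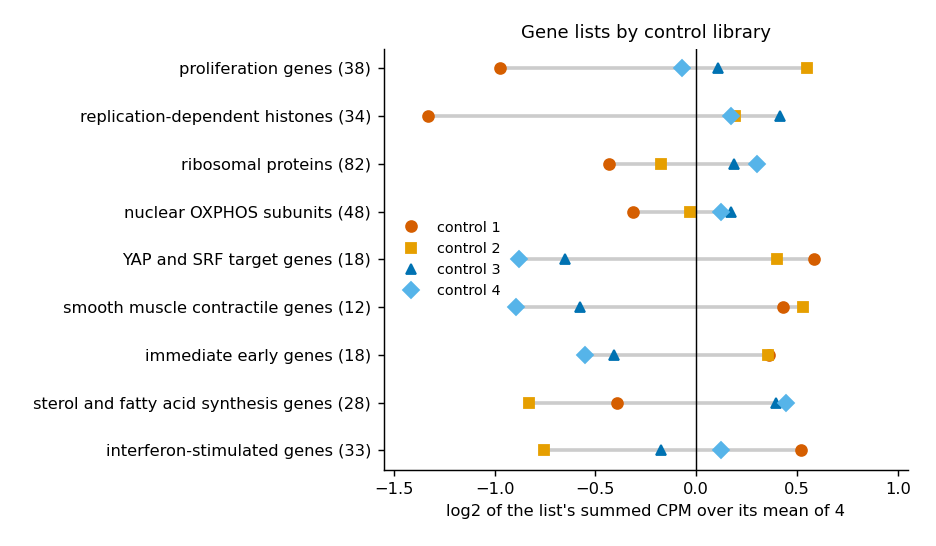
Summed CPM of 9 gene lists in each control library, as log2 of its ratio to the list's mean over the 4 libraries (horizontal axis), with 1 point for each library and the number of genes in brackets. Histones reach -1.33 in control 1, proliferation genes -0.97 in control 1 and 0.55 in control 2, and YAP and SRF targets -0.88 in control 4.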

How the data were processed

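The authors deposited a table of raw read counts per gene with 1 column per library, and its 4 control columns are the values used here. Per the submitters' processing notes, STAR 2.7.8a, DESeq2 and the mouse build mm10 were used. The read counter, its use of strand, the annotation and any filter on low counts are stated in none of the sources used here. The lowest total over all 8 libraries was 27 counts, and antisense or overlapping genes may share reads. A second table, of normalized values, gave no level here: in all 12211 rows the control and knockout columns of each number had equal sums over the 4 numbers (within 1e-06), so spread between numbers is not held in it.

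CPM was the count times 1000000 over the column sum. Rows were matched to GENCODE M21 (GRCm38) for position and exon length, 12029 by symbol and 150 by synonym, leaving 32 without a match. Aldoa and Pakap each had 2 rows and got no per-length level. The per-length level (TPM) is counts per kilobase of exon union, scaled to sum to 1000000 per library. Promoters came from RefSeq on GRCm38.p6. R 4.3.3, edgeR 4.0.16 (TMM, dispersion), DESeq2 1.42.0 (size factors), Python 3.11.15, numpy 2.4.6, pandas 2.3.3 and matplotlib 3.10.9 were used. The 2-fold spread call was tested on simulated data with counting noise only, for genes with a mean of at least 10 CPM. The real libraries differ by more than counting noise, so that check does not cover their spread or scarcer genes.

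No groups were compared and no test between groups was run: means, SDs, ranges and orders over the 4 libraries are descriptions. Depth of 18850689 to 23217332 counts sets the counting error, which the ranges between libraries include. The members and gene lists were chosen with earlier results of these data known. Genes were named by rule: the 4 markers, the 20 highest by CPM and by per-length level, in each list the 5 highest by per-length level (all in families of at most 8), and the 15 most and 10 least variable genes with a mean of at least 10 CPM, leaving out predicted genes. Fap, Lum, Postn, Srf, Vcl, Ajuba, the HOX genes below the 5 highest and the reference genes of the paragraph on quantitative PCR were named after their values were seen. A few genes that the rule names are not reported here. Alternatives were other scalings, lengths, filters and a pseudocount, and each library left out in turn.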

Additional observations from a re-analysis of the deposited data

Results flagged for a closer look

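Values of 225 genes and gene lists were examined for a library that stood far from the other 3. The rule was Dixon's, the gap to the nearest library over the full range, at a cutoff that chance passes in about 1 of 20 groups of 4. This held for 12 of them, or 5.33%. The items include genes picked for a large or small CV and genes within the lists, so that share cannot be set against 1 of 20. The values are given as a description only. Control 1 was the library apart in 9 of the 12. Bst2 (66.5 CPM in control 1), Htr1b (60.8), Krt19 (196), Mustn1 (51.2), Pdgfa (60.7) and Ret (39.2 CPM) were higher in control 1 than in the other 3 libraries. So were the share of counts from extracellular matrix proteins (5.24%) and from matrix-processing enzymes (2.32%). Myh11 stood apart in control 2 at 60.5 CPM and Lyz2 in control 4 at 4.58 CPM. Usp46 (52.2 CPM in control 1) and Smap1 (51.5 CPM in control 3) are among the least variable genes by CPM. Their libraries stood apart only within a narrow range. Usp46 had 52.2, 53.4, 53.6 and 53.5 CPM and Smap1 49.96, 50.1, 51.5 and 50.1 CPM in controls 1 to 4.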

How the results depend on the processing

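No paired analysis was possible because the control libraries were compared with no other group and no result comes from a test between groups. As shares of the per-length level, the 10 most abundant genes held 11.9%, the 100 most abundant 31.0%, ribosomal proteins 10.3%, matrix proteins 1.98%, glycolytic genes 0.503%, oxidative phosphorylation subunits 1.80%, mitochondrially encoded genes 1.62% and histones 1.98%, and 398 genes held 50% of the level. The cause was not tested, and Aldoa, with no per-length level, is missing from the glycolytic share. The number of genes with a 2-fold range was 2478 with 1 added to each CPM, and 2329 to 3400 with 1 library left out, the lowest without control 1. The lowest correlation between libraries was 0.939 among genes with a mean of at least 1 CPM. The highest correlation was 0.975 to 0.992 with 1 library left out, 0.975 without control 3 and 0.976 without control 4. Leaving out 1 library moved the mean CPM of 20 of the 173 named genes by over 1.5 times. Without control 1 the mean of Ccn2 was 1027 in place of 2086 CPM, of Ccn1 252 in place of 484, of Acta1 22.5 in place of 50.2, of Thbs1 3740.4 in place of 6065 and of Tgfb3 264 in place of 451 CPM, and Bst2, Htr1b, Itga5, Lims2, Mustn1, Mycn, Pdgfb, Ret and Serpinb2 moved in the same way. Without control 2 Myh11 was 7.40 in place of 20.7 CPM. Without control 4 Scara5 was 15.5 in place of 33.7 CPM, and Igsf10, Mest, Postn and Rspo3 moved likewise. Depth limits the scarce genes most: below 1 CPM the median coefficient of variation was 51.2%.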

Other observations

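The order of libraries within gene groups was not 1 order but several. Control 1 was highest for YAP and SRF targets and interferon-stimulated genes and lowest for histones, proliferation genes and ribosomal proteins, whereas control 2 was highest for proliferation genes and lowest for sterol synthesis genes. Controls 3 and 4 were the most alike pair over all genes, yet Acta1, Scara5, Rspo3, Igsf10 and Mest still differed more than 2-fold between them. Acta1 had 18.4 CPM in control 3 and 8.77 in control 4, Scara5 31.8 and 88.3, Rspo3 21.7 and 55.6, Igsf10 13.3 and 32.3, and Mest 22.1 and 57.0 CPM.

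Among 8 adipocyte markers 4 had a row and among 10 cartilage and bone markers 5 had one. In the latter Spp1 had 153, 194, 331 and 631 CPM, and the range of 4.14-fold had its highest value in control 4, where Postn and Col3a1 were also highest.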
